A study of Mus musculus with 46 samples.

Results

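SR proteins and heterogeneous nuclear ribonucleoproteins (hnRNPs) were examined in ribosome profiling and RNA-seq libraries of EPP2 cells, a murine pancreatic cancer line, with or without the tRNA-modifying enzyme Ctu1 and with or without the mTOR kinase inhibitor torin 1. The genes were taken by symbol, as all listed genes named Srsf with a number or Hnrnp with a letter, a choice made with earlier results of these data known. This gave 30 genes of 10453 in the tables, of which 10 were SR proteins and 20 were hnRNPs. Srsf12, a further member of the SR family, is not listed in the tables. All cells came from an EPP2 clone with doxycycline-inducible Cas9. Control cells carried wild-type Ctu1. Controls of the study carried guide RNAs against non-coding chromosome regions or received no doxycycline, and which of these the control libraries were is not stated in the sources used here. Ctu1 inducible knockout (Ctu1 iKO) cells carried guide RNAs against Ctu1 and were given 300 ng/ml doxycycline 4 days before harvest. Cultures were treated for 2 h with DMSO or with 300 nM torin 1, and ribosome footprints and mRNA were taken from the same lysates. There were 6 control cultures with DMSO, 6 control cultures with torin 1, 5 Ctu1 iKO cultures with DMSO and 6 Ctu1 iKO cultures with torin 1.

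SR proteins bind exonic sequences of pre-mRNA with their RNA recognition motifs (RRMs) and recruit the spliceosome through a tail rich in arginine and serine, whose phosphorylation controls where they reside and what they bind. The hnRNPs coat nascent transcripts, often oppose SR proteins at splice sites, and also act in mRNA export, stability and translation. Many genes of both families hold exons that introduce a premature stop codon, which sends part of their transcripts to nonsense-mediated decay. The question of the design was how mTOR inhibition and loss of Ctu1 act on mRNA levels and ribosome occupancy. mTORC1 sustains the translation of mRNAs that begin with a cytidine and a stretch of pyrimidines (TOP mRNAs), and Hnrnpa1 is counted among the known TOP mRNAs. Ctu1 thiolates the wobble uridine of tRNAs that read the codons AAA, CAA and GAA (VAA codons) and AGA, an arginine codon that is common in SR proteins.

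Library totals lay between 4602092 and 52907878 counts for footprints and between 129881946 and 325494304 counts for RNA-seq, and the 30 genes held 2.72% to 3.59% of the footprint counts and 1.80% to 2.47% of the RNA-seq counts. Each library was placed on a scale on which the mean of the other DMSO libraries of its genotype stands at 0 and that of the other torin 1 libraries at 1, with RNA-seq means taken from replicates 1 to 3, and all footprint libraries stood on the side of their label. In RNA-seq, by contrast, 4 torin 1 libraries of replicates 5 and 6 stood at 0.15 to 0.19 and Ctu1 iKO replicates 4 and 5 with DMSO stood at 0.93 and 0.82, against their labels. RNA-seq values below are from replicates 1 to 3, a choice made together with that of the genes, among which the Ctu1 iKO library with torin 1 of replicate 3 stood at 0.49. Ctu1 itself, listed with DMSO only, had 2.53 ± 0.65 footprint counts per 1000000 scaled counts (CPM; SD, n = 6) in control and 1.79 ± 0.42 in Ctu1 iKO (n = 5), a log2 fold change (log2FC) of -0.54 ± 0.29 (SE) with an adjusted p of 0.353 in the quasi-likelihood test of edgeR. Ctu1 mRNA stood at 4.62 ± 0.12 CPM in control and 4.63 ± 0.30 CPM in Ctu1 iKO (n = 3), and counts per gene do not show small deletions made by Cas9. Of the epithelial markers, Krt8, Krt18, Krt19 and Epcam were listed with DMSO, Cdh1, Krt7 and Cldn4 were not, and no acinar or endocrine pancreas marker of 7 was listed. Of the mesenchymal markers, 4 of 5 were listed, and of the immune and endothelial markers 1 of 5, Cd68.

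The first 30 bases of 4 transcripts are shown because a cytidine and a stretch of pyrimidines at the very start define TOP mRNAs. Capitals mark the longest run of C and T, whether or not it lies at the start. They are DNA letters read 5′ to 3′ from GRCm38 at transcript starts annotated by GENCODE M21, where annotated and used starts can differ. Hnrnpa1 is on the plus strand at chr15:103240432-103240461, and the other 3 are on the minus strand, Hnrnpa0 at chr13:58128527-58128556, Hnrnpdl at chr5:100039193-100039222 and Srsf7 at chr17:80207276-80207305.
Hnrnpa1: gggcacgttcgttatcgtaTTCCTTTCTgc
Hnrnpa0: CTCTTTgtgtggtgtcccgataggggagcg
Hnrnpdl: cggtcccgcacggctgaCTCTCCCCgcggc
Srsf7: gtagtgCCgccgggattgcaggcagaggag
Within these 30 bases, Hnrnpa1 had a run of 9 at bases 20 to 28, Hnrnpdl a run of 8, Hnrnpa0 a run of 6 that begins at the first base, and Srsf7 no run above 2. Within the first 50 bases, a run of at least 9 was present in 2 of the 30 genes, Hnrnpa1 and Hnrnpul1, and in 9.89% of all genes, a length chosen after Hnrnpa1 had been seen. A start of C followed by 4 bases of C or T was present in Hnrnpa0 alone among the 30 genes, and in 2.23% of all genes.

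Coding sequences carried the composition for which both families are known. Stretches of 10 codons are printed to show it, with AGA in capitals for Srsf7, VAA codons in capitals for Hnrnpc and glycine codons in capitals for Hnrnpa1. They are the stretches richest in these codons in the GENCODE M21 coding sequences of Srsf7 (codons 169 to 178, gene on the minus strand at chr17:80200080-80207305), Hnrnpc (codons 213 to 222, minus strand, chr14:52073676-52103999) and Hnrnpa1 (codons 293 to 302, plus strand, chr15:103240432-103244955).
Srsf7: cgtAGAtcaAGAtcagcttcactcAGAAGA
Hnrnpc: GAAagcctgGAAAAAattGAAAAAGAACAA
Hnrnpa1: GGAGGAGGCGGAGGCGGCtttGGCGGTGGT
Srsf7 had 20 AGA codons of 238, Hnrnpc 34 VAA codons of 306, and Hnrnpa1 93 glycine codons of 373. Over the 10 SR proteins the median was 5.00% AGA codons, against 1.06% over 10159 genes, and each of the 10 stood above the median of all genes. VAA codons made up a median of 5.48% of SR protein codons, 6.96% of hnRNP codons and 6.06% of the codons of all genes. Glycine took a median of 13.0% of hnRNP codons against 6.21% over all genes. A transcript annotated as a target of nonsense-mediated decay was present in 9 of 10 SR protein genes and 10 of 20 hnRNP genes, and in 31.3% of all genes.

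**Figure D1:**
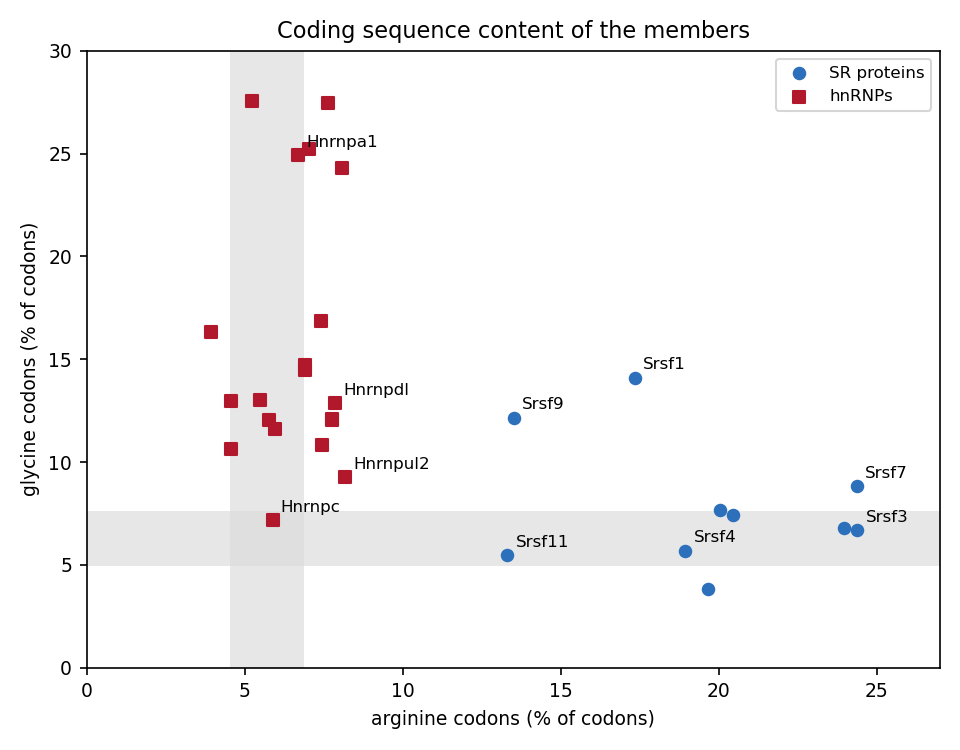
Share of arginine codons (horizontal axis, percent) and of glycine codons (vertical axis, percent) in the coding sequences of the 30 genes, with SR proteins and hnRNPs in different colors and grey bands for the range between the quartiles of all genes. The 10 SR proteins lie at a median of 19.9% arginine codons against 5.60% over all genes, and the 20 hnRNPs at a median of 13.0% glycine codons against 6.21%.

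Both families had high footprint levels in control cells with DMSO. Per kilobase of coding sequence, 27 of the 30 genes had mean footprint levels above the upper quartile of all genes (54.0 CPM per kb) and all 30 were above the median of 18.1 CPM per kb. Hnrnpk, a KH-domain protein that binds cytidine-rich RNA, was highest with 5771 ± 462 CPM per kb (SD, n = 6), and Hnrnpa2b1, an RRM protein related to Hnrnpa1, followed with 4919 ± 631. Next stood Hnrnpa1, a splicing repressor, with 2712 ± 243, and Hnrnpf, which binds G-tracts, with 2546 ± 225. Among the SR proteins Srsf7, which also acts in mRNA export, was highest with 857 ± 53.3 CPM per kb, and Srsf4, which has a long arginine-serine tail, was the lowest of all 30 genes with 24.3 ± 1.18. In 20 of the 29 pairs of neighbors in this order the cultures overlapped, including the pair of Hnrnpa1 and Hnrnpf, while Hnrnpa2b1 did not overlap with Hnrnpa1.

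Torin 1 lowered the footprints of 4 SR proteins and of 2 hnRNPs in control cells and raised those of 1 hnRNP. These 7 of 30 genes passed an adjusted p of 0.05 (edgeR quasi-likelihood test, Benjamini-Hochberg over 9856 genes), where 7.24% of all genes tested did, 4.33% lower and 2.91% higher. The SR proteins were Srsf7, Srsf3, Srsf4 and Srsf10, the lowered hnRNPs were Hnrnpdl and Hnrnpa1, and the gene that rose was Hnrnpul2. The median log2FC was -0.27 over the 10 SR proteins, -0.0044 over the 20 hnRNPs and 0.015 over all genes. All 10 SR proteins had values below 0, from -0.64 for Srsf7 to -0.0047 for Srsf9, and 9 of them had an unadjusted p under 0.05, where 10.6% of all genes had such a p and were lower. With library totals alone in place of TMM factors, the median of all genes stood at 0.10, Srsf9 and 6 hnRNPs changed sign, and all 10 SR proteins stood below that median. Srsf4 and Srsf10 were not called under that scaling, which left 5 of the 30 genes (9.43% of all genes), and 602 of 929 genes that passed the test were higher with torin 1, against 287 of 714 with TMM.

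Srsf7 had between 551 and 655 footprint CPM (median 617, n = 6) with DMSO and between 344 and 431 (median 400.0, n = 6) with torin 1. The groups did not overlap, and the log2FC was -0.64 ± 0.076 (SE; adjusted p = 4.45e-05). Hnrnpdl, an RNA-binding protein related to the AU-rich element factor Hnrnpd, had between 309 and 416 CPM (median 399) with DMSO and between 219 and 294 (median 268) with torin 1. Its groups did not overlap either, and it fell by 0.55 ± 0.093 on the log2 scale (adjusted p = 0.00156). Srsf3, the smallest SR protein and a factor of mRNA export, had between 303 and 409 CPM (median 367) with DMSO and between 246 and 316 (median 273) with torin 1, which overlapped (log2FC -0.40 ± 0.089, adjusted p = 0.0119). Hnrnpa1 had between 2687 and 3429 CPM (median 3027) with DMSO and between 2124 and 2590.4 (median 2289.7) with torin 1, with no overlap (log2FC -0.37 ± 0.083, adjusted p = 0.0112). Srsf4 had the fewest footprints of the members. Its range of 33.0 to 37.3 CPM (median 36.6) with DMSO did not overlap with that of 23.6 to 31.9 (median 28.3) with torin 1 (log2FC -0.37 ± 0.092, adjusted p = 0.0219). For Srsf10, which represses splicing when it is dephosphorylated, the ranges of 161 to 194 CPM (median 185) and 135 to 164 (median 146) overlapped (log2FC -0.31 ± 0.078, adjusted p = 0.0246). Hnrnpul2, which resembles the nuclear scaffold protein Hnrnpu, rose by 0.27 ± 0.074 on the log2 scale (adjusted p = 0.0396).

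Groups that did not overlap in the lower direction were found for 4 of the 30 genes, against 3.43% of all genes, and in the higher direction for Hnrnpul2, against 2.01%. The calls of Srsf7, Hnrnpdl, Srsf3 and Hnrnpa1 held without any of the 12 libraries. Hnrnpul2 missed the threshold without any of 9 libraries (highest adjusted p 0.091), Srsf10 without control torin 1 replicates 2 or 4 or control DMSO replicates 2, 5 or 6 (highest 0.0689), and Srsf4 without control torin 1 replicate 6 or control DMSO replicates 3 or 6 (highest 0.0537). Same-numbered cultures deviated together, and with the replicate number as a block 12 of the 30 genes passed, among them 9 SR proteins, Srsf9 being the exception, where 20.5% of all genes passed. Replicates 1 to 3 alone left Srsf7 as the only call among the 30 genes, with 1.4% of all genes called.

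**Figure D2:**
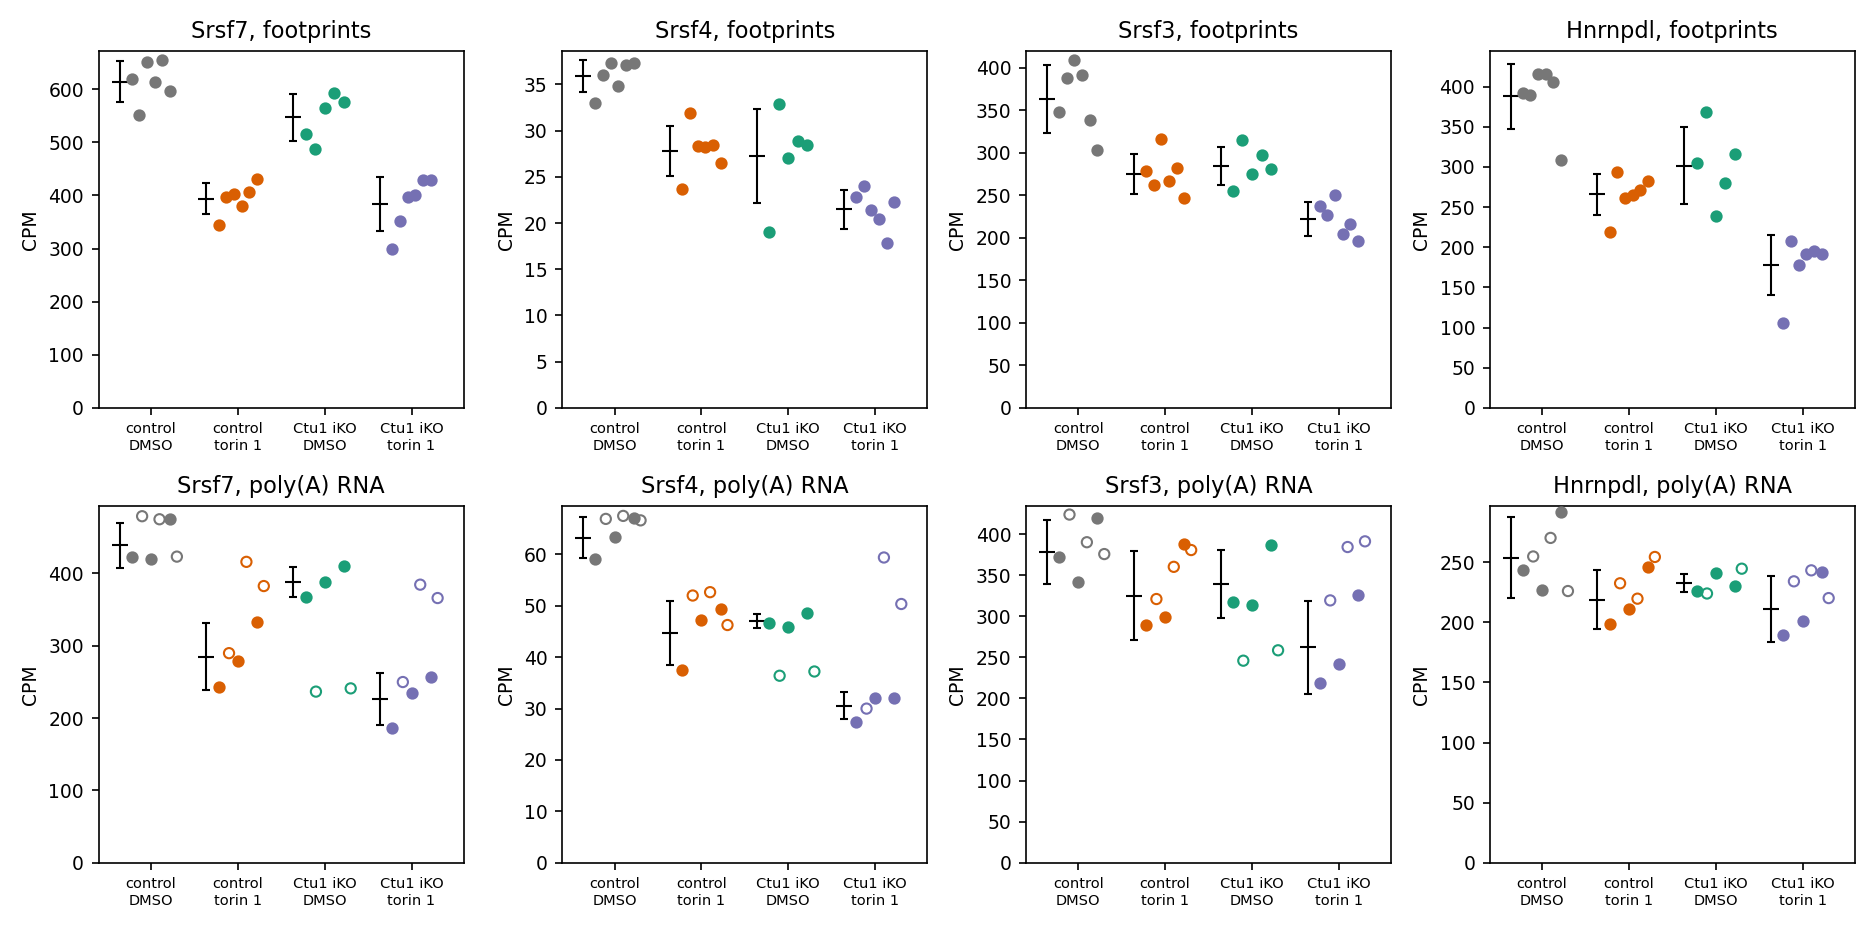
Footprints and mRNA of Srsf7, Srsf4, Srsf3 and Hnrnpdl in every culture (vertical axis, CPM) for control and Ctu1 iKO cells with DMSO or torin 1, where filled points are the libraries used, open points RNA-seq replicates 4 to 6, and bars the mean ± SD of the filled points. Srsf7 footprints lie between 344 and 431 CPM with torin 1 in control cells, all below the 551 to 655 CPM with DMSO, and Srsf7 and Srsf4 mRNA lie lower with torin 1 as well.

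In mRNA, torin 1 lowered 3 of the 30 genes in control cells, all of them SR proteins, where 13.1% of 9617 genes tested passed in either direction and 7.4% were lower. Srsf7 mRNA stood at 422, 419.7 and 475 CPM with DMSO and at 243, 279 and 333 CPM with torin 1. These groups did not overlap, and the log2FC of -0.64 ± 0.12 (adjusted p = 0.0164) stood beside -0.64 in footprints. Srsf4 mRNA stood at 59.2, 63.5 and 67.2 CPM with DMSO and at 37.5, 47.3 and 49.3 CPM with torin 1, again without overlap (log2FC -0.52 ± 0.11, adjusted p = 0.0241). Srsf10 mRNA was at 169, 165 and 176 CPM with DMSO and at 133, 130.1 and 152 CPM with torin 1 (log2FC -0.31 ± 0.080, adjusted p = 0.0417). Srsf3, lowered in footprints, had a log2FC of -0.23 in mRNA with an adjusted p of 0.301. All 10 SR proteins had values below 0 in mRNA, with TMM and with library totals alone, with a median of -0.26 against -0.046 over hnRNPs and 0.00070 over all genes. Torin 1 groups lay wholly below the DMSO groups for 5 SR proteins and 1 hnRNP, where 16.2% of all genes did. With 3 libraries a group these calls were less firm than in footprints. Srsf10 was lost in 5 of 6 fits that left out 1 library (highest adjusted p 0.144), all but the fit without control torin 1 replicate 3, Srsf4 without control torin 1 replicate 2 or any control DMSO replicate (0.0918), and Srsf7 without control torin 1 replicate 2 or control DMSO replicate 2 (0.0723). With the replicate block, which the deviations of same-numbered libraries warranted, 15 of the 30 genes passed, 9 of them SR proteins, where 43.7% of all genes passed. The number of all genes called, 1259, itself fell to 671 and 541 without control torin 1 replicates 1 and 2 and to 575 and 412 without control DMSO replicates 1 and 2.

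**Figure D3:**
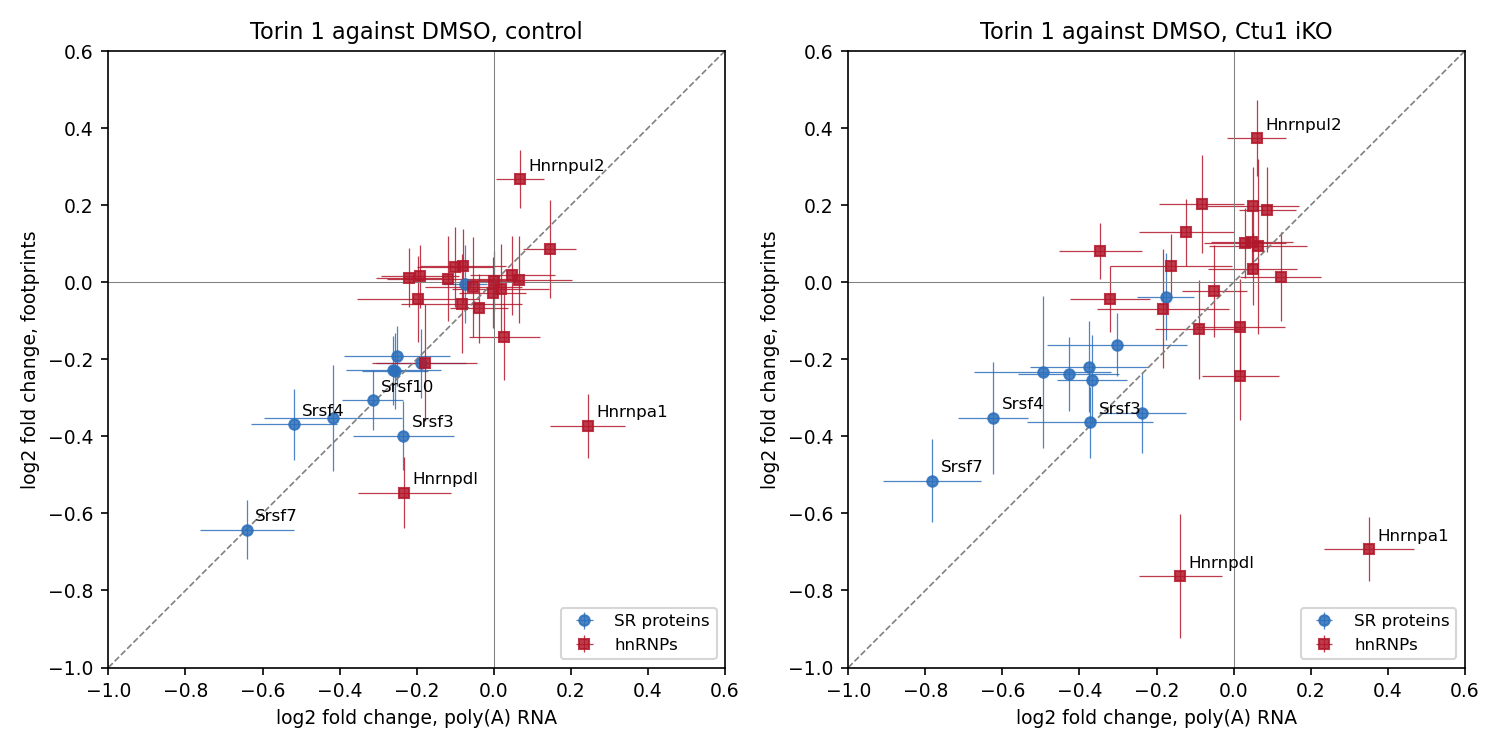
Effect of torin 1 on mRNA (horizontal axis, log2FC) and on footprints (vertical axis, log2FC) for each of the 30 genes, in control cells and in Ctu1 iKO cells, with bars for the SE, SR proteins and hnRNPs in different colors, and a dashed line of equal change. Srsf7 lies at -0.64 in mRNA and -0.64 in footprints in control cells, and Hnrnpa1 lies below the line in both panels, at 0.24 in mRNA and -0.37 in footprints in control cells and at 0.35 and -0.69 in Ctu1 iKO cells.

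Torin 1 lowered the footprints per mRNA of Hnrnpa1 in control cells. Translational efficiency was tested as the difference between the torin 1 effects on footprints and on mRNA in a single edgeR model, and Hnrnpa1 was the only one of the 30 genes to pass, where 1.29% of 9856 genes did. Hnrnpa1 mRNA stood at 2106, 2060.2 and 2416 CPM with DMSO and at 2526, 2453 and 2910.4 CPM with torin 1 in control cells. The mRNA groups did not overlap, as for 16.9% of all genes in the higher direction, with a log2FC of 0.24 ± 0.096 and an adjusted p of 0.152. In the same cultures, the log2 ratio of Hnrnpa1 footprints to mRNA was 0.52, 0.56 and 0.43 with DMSO and -0.25, -0.10 and -0.20 with torin 1. The change in translational efficiency was -0.62 ± 0.14 (log2, SE; adjusted p = 0.0193), and it missed the threshold without control torin 1 replicate 3 or control DMSO replicates 1 or 2 (adjusted p 0.0241 to 0.165 over the 6 fits that left out an RNA-seq and footprint pair). With footprint replicates 1 to 3 alone it was -0.67 and 0 of the 30 genes passed, with 112 genes called over all. For mRNA alone, the replicate block gave an adjusted p of 0.000255 with the same log2FC of 0.24. The SR proteins had translational efficiency changes between -0.17 and 0.15 with a median of 0.026, close to the median of 0.028 over all genes.

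**Figure D4:**
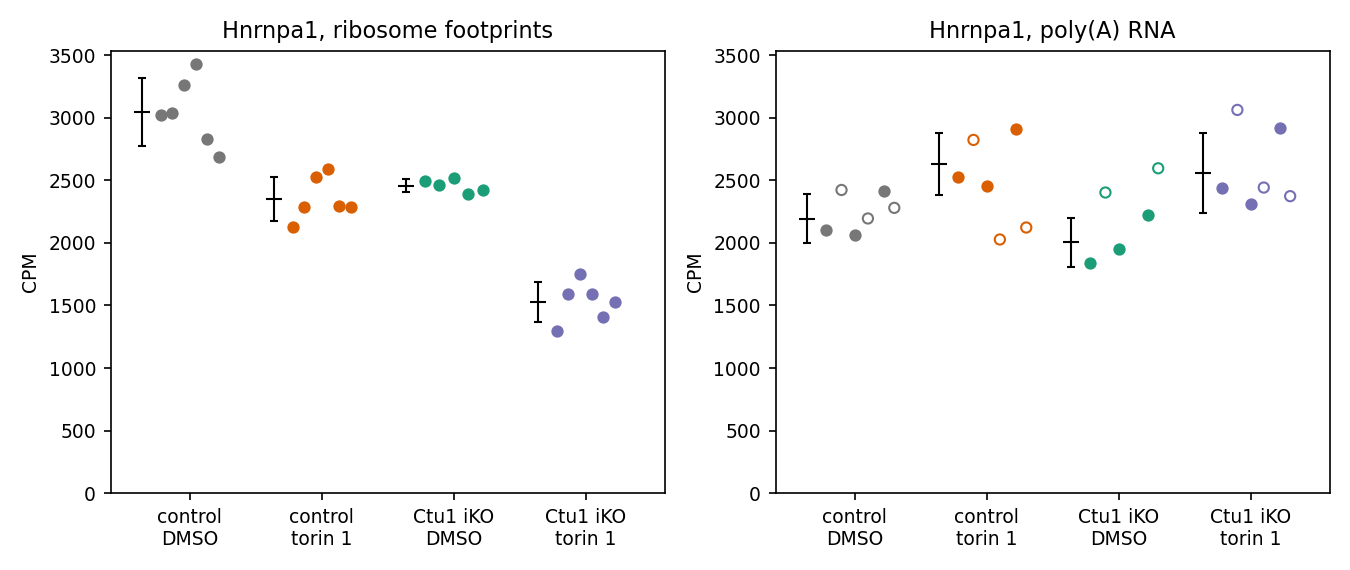
Hnrnpa1 footprints (left) and mRNA (right) in every culture of control and Ctu1 iKO cells with DMSO or torin 1 (vertical axis, CPM), where filled points are the libraries used, open points RNA-seq replicates 4 to 6, and bars the mean ± SD of the filled points. Footprints lie between 2687 and 3429 CPM in control cells with DMSO and between 1293 and 1754 CPM in Ctu1 iKO cells with torin 1, while the filled mRNA points with torin 1 lie above those with DMSO in either genotype.

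In Ctu1 iKO cells, torin 1 lowered the footprints of Hnrnpdl, Hnrnpa1, Srsf7 and Srsf3 and raised those of Hnrnpul2, 5 of 30 genes, where 8% of 9855 genes passed, 4.52% lower and 3.48% higher. Hnrnpa1 had 2491, 2462, 2518, 2394 and 2421 CPM with DMSO and between 1293 and 1754 (median 1560.1, n = 6) with torin 1. The groups did not overlap, and the log2FC was -0.69 ± 0.083 (adjusted p = 7.07e-05). Hnrnpdl had 305, 368, 239, 280.03 and 316 CPM with DMSO and between 105 and 208 (median 192) with torin 1, without overlap (log2FC -0.76 ± 0.16, adjusted p = 0.00914). Srsf7 had 517, 487, 564, 593 and 575 CPM with DMSO and between 299 and 429 (median 399) with torin 1, also without overlap (log2FC -0.51 ± 0.11, adjusted p = 0.00815). Srsf3 had 255, 314, 275, 298 and 280.3 CPM with DMSO and between 196 and 250.5 (median 222) with torin 1 (log2FC -0.36 ± 0.092, adjusted p = 0.0265). Hnrnpul2 was higher in every torin 1 culture, with 89.7, 97.3, 92.5, 105 and 94.7 CPM with DMSO and between 111 and 148 (median 121) with torin 1 (log2FC 0.37 ± 0.099, adjusted p = 0.0318). Non-overlap in the lower direction held for 4 of 30 genes, against 4.69% of all genes, and in the higher direction for Hnrnpul2, against 3.47%. The SR protein median was -0.25 and that of hnRNPs 0.038, beside 0.018 over all genes. All 10 SR proteins were below 0 with TMM, and 9 were with library totals alone, which put the median of all genes at 0.11 and again gave Srsf9 the other sign. Srsf3 was not called under that scaling, where 9.1% of all genes passed. The split of all calls moved from 343 of 788 higher to 580 of 897 under that scaling. Srsf3 missed the threshold without any of Ctu1 iKO torin 1 replicates 4, 5 or 6 or DMSO replicates 2, 4 or 5 (highest adjusted p 0.0739), and Hnrnpul2 without torin 1 replicates 5 or 6 or DMSO replicates 1, 2, 3 or 5 (0.0795), while the other 3 calls held throughout.

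In mRNA of Ctu1 iKO cells, 2 of 30 genes passed, Srsf7 and Srsf4, both lower, where 8.25% of 9619 genes passed and 4.52% were lower. Srsf7 stood at 368, 388 and 409.7 CPM with DMSO and at 186, 235 and 256 CPM with torin 1 (log2FC -0.78 ± 0.13, adjusted p = 0.0142). Srsf4 stood at 46.6, 45.9 and 48.5 CPM with DMSO and at 27.5, 32.0 and 32.1 CPM with torin 1 (log2FC -0.62 ± 0.091, adjusted p = 0.011). Neither pair of groups overlapped, and the SR protein median was -0.37. Torin 1 groups lay wholly below the DMSO groups for 6 SR proteins and 2 hnRNPs, where 16.4% of all genes did. They lay wholly above for 2 hnRNPs, where 14.2% of all genes did. Srsf7 was lost without Ctu1 iKO torin 1 replicate 2 or any DMSO replicate (highest adjusted p 0.0653) and Srsf4 without DMSO replicates 1 or 2 (0.0577), and with the replicate block 13 genes passed, 9 of them SR proteins, where 35.1% of all genes passed. The 794 calls over all genes fell to 123, 125 and 311 without Ctu1 iKO DMSO replicates 1, 2 and 3 and to 459 and 243 without torin 1 replicates 1 and 2. Hnrnpa1 mRNA stood at 1842, 1955 and 2221 CPM with DMSO and at 2442, 2309.5 and 2921 CPM with torin 1 (log2FC 0.35 ± 0.12, adjusted p = 0.117, and 0.00144 with the block). Its log2 ratio of footprints to mRNA was 0.44, 0.33 and 0.18 with DMSO and -0.92, -0.54 and -0.74 with torin 1. The change in translational efficiency of Hnrnpa1 was -1.04 ± 0.14 (adjusted p = 0.000104), the only call among the 30 genes where 2% of 9855 genes passed, and its adjusted p reached at most 0.00248 when any library was left out. Hnrnpdl, with mRNA at 226, 241 and 230.1 CPM and at 189.6, 201 and 242 CPM, had a translational efficiency change of -0.62 with an adjusted p of 0.427. A second gene beside Hnrnpa1 passed under 4 alternatives. With all RNA-seq replicates, which include libraries that stood against their labels, it was Hnrnpdl (-0.69, adjusted p = 0.0478), where 253 of all genes passed. For Hnrnpab, an A/B-type hnRNP, the value of 0.43 (adjusted p = 0.119) passed with DESeq2 (adjusted p = 0.0273), library totals alone (0.0148) and the replicate block (0.0337), where 297, 183 and 274 of all genes passed. The SR proteins had a median translational efficiency change of 0.15, beside 0.035 over all genes, and 0 of 10 passed.

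Loss of Ctu1 without mTOR inhibition lowered the footprints of 1 of the 30 genes past the threshold, Hnrnpa1, where 2.66% of 10397 genes passed and 1.04% were lower. This comparison and that of torin 1 in control cells share the 6 control DMSO cultures, so their values are not independent. Hnrnpa1 had between 2687 and 3429 CPM (median 3027) in control and between 2394 and 2518 in the 5 Ctu1 iKO cultures, which did not overlap. The only other member whose groups did not overlap was Srsf4, lower in Ctu1 iKO, and 2.27% of all genes had such groups. The log2FC of -0.31 ± 0.072 had an adjusted p of 0.0394, and it held only without control DMSO replicate 6 among 11 fits that left out 1 library each (0.0356 to 0.088). Values below 0 were seen for 26 of the 30 genes, of which Hnrnpa0, Hnrnpab, Hnrnpl, Hnrnpm and Srsf6 changed sign with library totals alone. DESeq2 called 7 of the 30 genes (6.73% of all genes), a fit with the replicate number as a block 4 (3.5%), and replicates 1 to 3 alone 0 (0.0192%). The median was -0.17 over the 30 genes and -0.00043 over all genes, and 12 of the 30 had an unadjusted p under 0.05, all lower, as did 8.43% of all genes. Over all genes, 277 calls became 144 to 175 without any of control DMSO replicates 2 to 6 or Ctu1 iKO DMSO replicates 3 or 5. The lowest value was that of Hnrnpa3, an A/B-type hnRNP, at -0.44 (adjusted p = 0.116), and the highest that of Hnrnpul2 at 0.11. Hnrnpd, which binds AU-rich elements and shortens the life of mRNAs, and Srsf3 were nearest to the threshold with adjusted p of 0.0581 and 0.0614.

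In mRNA with DMSO, Srsf4 was the only one of the 30 genes to pass, where 5.12% of 10119 genes did and 1.8% were lower. It stood at 59.2, 63.5 and 67.2 CPM in control and at 46.6, 45.9 and 48.5 CPM in Ctu1 iKO (log2FC -0.43 ± 0.072, adjusted p = 0.025). The groups did not overlap, but the call held only without Ctu1 iKO DMSO replicate 3 (0.0293 to 0.136 over 6 fits). Ctu1 iKO groups lay wholly below control groups for 4 SR proteins, Srsf4 among them, and 6 hnRNPs, where 14.9% of all genes did. All 10 SR proteins had values below 0 with either scaling, and with the replicate block 10 of the 30 genes passed, 7 of them SR proteins and all lower, where 28% of all genes passed and 13.6% were lower. The 518 calls over all genes became 0 to 131 without any 1 of these libraries other than Ctu1 iKO DMSO replicate 3. Hnrnpa1 mRNA had a log2FC of -0.13 (adjusted p = 0.461). No gene of the 30 passed for translational efficiency in edgeR, where 0.0192% of all genes did. None of the 30 had an unadjusted p under 0.05, against 1.74% of all genes, and DESeq2 called 0, against 0.0481%. The 2 calls over all genes became 0 without control DMSO replicate 2 or Ctu1 iKO DMSO replicate 1.

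**Figure D5:**
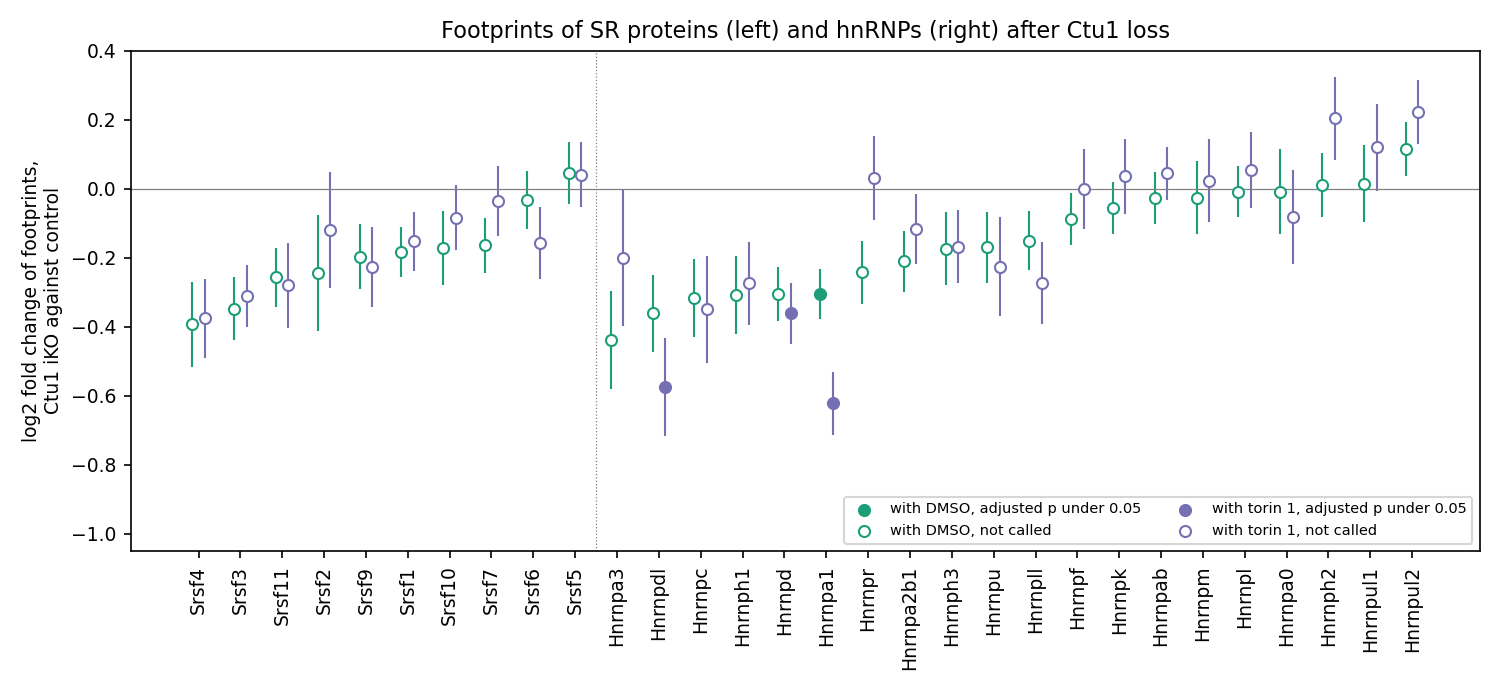
Effect of Ctu1 loss on the footprints of each of the 30 genes (vertical axis, log2FC of Ctu1 iKO against control ± SE) with DMSO and with torin 1, where filled points have an adjusted p under 0.05. Hnrnpa1 is filled in both conditions, at -0.31 with DMSO and -0.62 with torin 1, and Hnrnpdl and Hnrnpd are filled with torin 1.

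With torin 1 in both genotypes, Ctu1 loss lowered the footprints of 3 hnRNPs and of no SR protein past the threshold, where 4.83% of 9913 genes passed and 2.6% were lower. The torin 1 cultures are those of the comparisons with DMSO above, so these values are not independent of them. Hnrnpa1 had between 2124 and 2590.4 CPM (median 2289.7) in control and between 1293 and 1754 (median 1560.1) in Ctu1 iKO. The groups did not overlap, the log2FC was -0.62 ± 0.091 (adjusted p = 0.000843), and the call held without any of the 12 libraries. Hnrnpdl had between 219 and 294 CPM (median 268) in control and between 105 and 208 (median 192) in Ctu1 iKO (log2FC -0.57 ± 0.14, adjusted p = 0.0314). Hnrnpd had between 1197 and 1464 CPM (median 1294) in control and between 936 and 1117 (median 1037) in Ctu1 iKO (log2FC -0.36 ± 0.088, adjusted p = 0.0295). None of these 3 overlapped, against 2.52% of all genes in the lower direction. Hnrnpdl missed the threshold without any of control torin 1 replicates 2 to 6 or Ctu1 iKO torin 1 replicate 3 (highest adjusted p 0.0699), and Hnrnpd without control torin 1 replicates 2, 4 or 5 or Ctu1 iKO torin 1 replicates 3 or 6 (0.0709). Of the SR proteins, 9 of 10 had values below 0 and 8 of 10 with library totals alone, with a median of -0.15 against 0.012 over all genes. Srsf3 (-0.31, adjusted p = 0.0659) and Srsf4 (-0.38, adjusted p = 0.0798) were the SR proteins nearest to the threshold. Here too same-numbered cultures deviated together, and with the replicate block 10 genes passed, 3 of them SR proteins, where 14.4% of all genes passed. Over all genes, 479 calls became 316 and 301 without control torin 1 replicates 3 and 6.

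Hnrnpd mRNA stood at 427, 491 and 545 CPM in control and at 314, 346 and 395 CPM in Ctu1 iKO with torin 1 (log2FC -0.46, adjusted p = 0.113). Hnrnpdl mRNA was at 199, 211 and 246 CPM and at 189.6, 201 and 242 CPM, with a log2FC of -0.04 (adjusted p = 0.901). Hnrnpa1 mRNA had a log2FC of -0.026 (adjusted p = 0.931). In mRNA, 0 of the 30 genes passed in edgeR, where 1.31% of 9650 genes did, 4 had an unadjusted p under 0.05, against 20% of all genes, and DESeq2 called 4, Hnrnpd, Srsf11, Srsf4 and Srsf9, against 11.3%. The 126 calls over all genes became 1 to 20 without any of the control torin 1 libraries or Ctu1 iKO torin 1 replicates 1 or 2, and 406 without Ctu1 iKO torin 1 replicate 3. All 10 SR proteins stood below 0 with either scaling, with a median of -0.31, and Srsf4 had the lowest value of the 30 genes (-0.54, adjusted p = 0.0877). With the replicate block 16 genes passed, all lower, and they included all 10 SR proteins, where 32.8% of all genes passed and 15.5% were lower. For translational efficiency 0 of 30 passed in edgeR, where 0.605% of 9913 genes did, 2 had an unadjusted p under 0.05, against 3.46% of all genes, and DESeq2 called Hnrnpa1 (adjusted p = 0.012), against 1.12%. Hnrnpa1 had a value of -0.60 ± 0.15 (adjusted p = 0.109) and Hnrnpdl one of -0.54 (adjusted p = 1.0). With the replicate block both passed, Hnrnpa1 with an adjusted p of 0.000508 and Hnrnpdl with 0.0484, where 1.81% of all genes passed. The 60 calls over all genes became 18 without control torin 1 replicate 2 and 31 without Ctu1 iKO torin 1 replicate 3. The SR proteins had a median translational efficiency change of 0.16, beside 0.0030 over all genes.

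Whether torin 1 acted more strongly on footprints in Ctu1 iKO than in control was tested as an interaction, and 0 of the 30 genes passed in edgeR, where 0.639% of 9857 genes did. Hnrnpa1 had the lowest value, a further -0.31 ± 0.11 on the log2 scale, with an unadjusted p of 0.00959 and an adjusted p of 0.547. It was the only one of the 30 genes with an unadjusted p under 0.05, against 4.67% of all genes, and DESeq2 called 0, against 1.11%. Srsf7, the SR protein with the largest torin 1 effect, had an interaction of 0.13. The lowering of Hnrnpa1, Srsf7 and Hnrnpdl by torin 1 was called in both genotypes, as was that of Srsf3, whose call in Ctu1 iKO cells was lost with library totals alone, with the replicate block and without any of 6 libraries. A difference between genotypes was called for none of them.

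Proteins that work with the SR proteins and hnRNPs were covered by lists. Of 23 SR-like and SR-related genes, 0 were higher and 10 were lower in footprints with torin 1 in control cells, where 4.33% of all genes were lower, with a median of -0.28, and the largest change was that of Luc7l3, a U1-associated splicing factor (-0.72, adjusted p = 0.000349). In mRNA of the same cells 7 were lower (7.4% of all genes), with Luc7l3 again the largest (-0.64, adjusted p = 0.00378). In Ctu1 iKO cells 5 were lower in footprints (4.52% of all genes), led by Luc7l (-0.85, adjusted p = 0.00118), and 5 in mRNA (4.52%), led by Scaf4 (-0.66, adjusted p = 0.0156). Ctu1 loss with DMSO lowered 1 in footprints, where 1.04% of all genes were lower, Son, a scaffold of nuclear speckles (-0.48, adjusted p = 0.0303).

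Of 11 hnRNPs listed under other symbols, Pcbp2, the poly(C)-binding hnRNP E2, passed in 5 comparisons. Its footprints were lower with torin 1 in Ctu1 iKO cells (log2FC -0.51, adjusted p = 0.00237, with 4.52% of all genes lower) and lower in Ctu1 iKO than in control with torin 1 (-0.52, adjusted p = 0.012, with 2.6% lower). Its translational efficiency changed by -0.74 (adjusted p = 0.00197) and -0.73 (adjusted p = 0.0383) in these comparisons, where 2% and 0.605% of all genes passed. In mRNA, Pcbp2 rose with torin 1 in control cells (0.23, adjusted p = 0.0445, with 5.69% of all genes higher). The only other call on this list was Ptbp2 in footprints with torin 1 in Ctu1 iKO cells (0.46, adjusted p = 0.0277, with 3.48% of all genes higher).

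Among 11 genes of SR protein kinases and nuclear import, Prpf4b was the only gene lower in footprints with torin 1 in control cells (-0.57, adjusted p = 0.0192, with 4.33% of all genes lower), and in Ctu1 iKO cells Clk1, a kinase of SR proteins, rose by 0.63 (adjusted p = 0.0389) while Srpk1, which phosphorylates SR proteins in the cytoplasm, fell by 0.45 (adjusted p = 0.0128). The related kinase Srpk2, named after its value had been seen, rose by 0.44 in the same comparison (adjusted p = 0.0335), in which 3.48% of all genes were higher and 4.52% lower. In mRNA, Prpf4b was lower with torin 1 in both genotypes (-0.52 in control, adjusted p = 0.0253, with 7.4% of all genes lower, and -0.46 in Ctu1 iKO, adjusted p = 0.0304, with 4.52% lower), and Clk3 was higher in control cells (0.41, adjusted p = 0.0488, with 5.69% of all genes higher). Of 25 genes of spliceosomal snRNPs, 2 were lower with torin 1 in control footprints (4.33% of all genes, largest Sf3b4, -0.40, adjusted p = 0.0467), 3 in Ctu1 iKO footprints (4.52%, largest Snrpe, -0.53, adjusted p = 0.00467), and 3 were lower in Ctu1 iKO than in control with torin 1 (2.6%, largest Snrpa1, -0.50, adjusted p = 0.0259). In mRNA, Phf5a was lower with torin 1 in control cells (-0.29, adjusted p = 0.0248, with 7.4% of all genes lower), and Sf3b6 was higher in Ctu1 iKO with DMSO (0.31, adjusted p = 0.0399, with 3.32% of all genes higher), a comparison whose calls rest on single libraries as given above. Of 10 factors of nonsense-mediated decay, 2 were lower in mRNA with torin 1 in control cells (7.4% of all genes, largest Upf1, -0.47, adjusted p = 0.042), and Smg9 was the only call in footprints, higher with torin 1 in Ctu1 iKO cells (3.48% of all genes, 0.56, adjusted p = 0.00984).

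Sums of marker genes differed between some of the same groups. Most of the mesenchymal sum was Vim, with a mean of 2463 CPM in mRNA and 3594 CPM in footprints of control cells with DMSO. The epithelial sums held 4 genes with DMSO and 3 with torin 1, where Epcam was not listed. The summed mRNA of the mesenchymal markers lay between 2564 and 2749 CPM in control cells with DMSO, 3183 and 3506 with torin 1, 3167 and 3472 in Ctu1 iKO cells with DMSO, and 4979 and 5601 with torin 1. That of the epithelial markers listed lay between 266.9 and 282.9, 344.9 and 378.4, 295.1 and 363.9, and 477.6 and 525.9 CPM in the same order. In footprints the mesenchymal sums lay between 3700 and 4722, 2970 and 3582, 3694 and 5219, and 2206 and 3385 CPM, without overlap between DMSO and torin 1 in either genotype. The epithelial sums in footprints lay between 261 and 324.3, 233 and 316.3, 305 and 392.6, and 270.2 and 323.1 CPM, and those of DMSO and torin 1 overlapped in both genotypes. The part of these markers in the results was not tested. In these bulk lysates, a different share of cells of a kind and a different amount of RNA per cell cannot be told apart.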

How the data were processed

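Ribosome footprints (monosomes after RNase I digestion of cycloheximide lysates, with molecular identifiers) and stranded poly(A) RNA-seq were measured in 23 cultures (46 libraries). The values are raw counts per gene as deposited, made by the authors with cutadapt 3.4, UMI-tools 1.1.1 and STAR 2.5.3a for footprints and STAR for RNA-seq per the submitters' processing notes, which name mm10 and GRCm38, while the methods name a human build for footprints. Deposited tables hold 10420 genes with DMSO and 9936 with torin 1, only genes with at least 100 footprint counts in some library, and RNA-seq counts that are all even. Symbols on several entries (11 symbols, 23 entries) were left out. Footprints were counted per gene by STAR, a mode that takes reads with a single match. The strand setting of either count and the treatment of RNA-seq reads that match several places are not given in the sources used here, so the 14 members whose exons overlap another annotated gene, and members with processed pseudogenes such as Hnrnpa1 and Hnrnpa3, are less certain.

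A gene entered a comparison when its counts averaged at least 10 over the libraries compared. The quasi-likelihood test of edgeR 4.0.16 (R 4.3.3, limma 3.58.1) was then run on TMM-scaled libraries of the groups compared, with Benjamini-Hochberg adjustment, after the scripts had been tested on simulated data. Translational efficiency was an assay-by-group interaction. CPM values are TMM-scaled over 9857 symbols shared by both tables, except for genes listed with DMSO only, such as Ctu1 and Epcam, which are not among these symbols. Alternatives were DESeq2 1.42.0, library totals alone, other count filters, a replicate block, fewer or all replicates, and leaving out single libraries. For translational efficiency, the cultures left out were replicates 1 to 3 and, for Ctu1 iKO with DMSO, all replicates. Python 3.11.15, numpy 2.4.6, pandas 2.3.3 and matplotlib 3.10.9 were used. RNA-seq replicates 1 to 3 were used, as set when the members were chosen, and libraries among replicates 4 to 6 stood against their labels.

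Pairing was checked as correlations of same-numbered deviations from group means. It held for footprints of control cells between treatments (0.46 to 0.66), for footprints with torin 1 between genotypes (0.34 to 0.58) and for the 4 RNA-seq comparisons (0.51 to 0.85). It did not hold for footprints of Ctu1 iKO cells between treatments (-0.04 to 0.46) or with DMSO between genotypes (-0.10 to 0.51).

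The members, lists and tests were chosen with earlier results of these data known. Values per culture are given for Hnrnpa1 and, per comparison, for at most 6 members past the threshold with the largest change and a mean of at least 100 counts, and from each further list the called gene with the largest change per direction. The methods name biologically independent replicates in a smaller number than the libraries, while figure legends count about as many independent experiments for footprints as libraries per group. Which of these holds is not stated in the sources used here, so p-values measure the spread between these samples, which may be partly technical. Intervals of counting error are not given, since replicate spread is used throughout.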

Additional observations from a re-analysis of the deposited data

Results flagged for a closer look

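In 2 of 32 groups of cultures, examined over 8 genes, the gap between 1 culture and the rest of its group, as a share of the group's range, exceeded Dixon's 95% critical value. Chance alone gives this in about 1 in 20 groups, so 2 in 32 is near that rate. Both were footprints of Hnrnpdl. In control cells with DMSO, replicate 6 was lowest with 308.9 CPM, while the next culture had 389.8 CPM and the highest 416 CPM, so the gap took up 0.755 of the range. In Ctu1 iKO cells with torin 1, replicate 1 was lowest with 105.1 CPM, while the next culture had 177.6 CPM and the highest 208 CPM, a gap of 0.702 of the range. The lowering of Hnrnpdl by torin 1 was called without either library in control and in Ctu1 iKO cells, as was its lowering by Ctu1 loss with torin 1 without Ctu1 iKO replicate 1. The cause was not tested.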

How the results depend on the processing

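Each value here is the number of the 30 genes past the threshold, followed in parentheses by the number over all genes in the same fit, and causes were not tested. In footprints with torin 1, control cells gave 12 (2019) with the replicate block and 1 (138) with replicates 1 to 3, and Ctu1 iKO cells gave 3 (983) and 1 (178). In footprints with Ctu1 loss, DMSO gave 7 (700) with DESeq2, 4 (364) with the block and 0 (2) with replicates 1 to 3, and torin 1 gave 5 (842), 10 (1425) and 0 (1). In mRNA with torin 1, control cells gave 15 (4206) with the block and 8 (1511) with RNA-seq replicates 1 and 2, an alternative chosen after seeing the data, and Ctu1 iKO cells gave 6 (1609) with DESeq2, 13 (3378) with the block, 0 (0) with all RNA-seq replicates and 10 (1002) with replicates 1 and 2. In mRNA with Ctu1 loss, DMSO gave 3 (1530) with DESeq2, 2 (473) with library totals alone, 2 (510) with at least 10 counts in every library, 10 (2831) with the block, 13 (2677) with all RNA-seq replicates and 5 (1547) with replicates 1 and 2, and torin 1 gave 4 (1092) with DESeq2 and 16 (3162) with the block. For translational efficiency, torin 1 in control cells gave 0 (112) with footprint replicates 1 to 3, torin 1 in Ctu1 iKO cells gave 2 with DESeq2 (297), library totals (183), the block (274) and all RNA-seq replicates (253), and Ctu1 loss with torin 1 gave 1 (111), 2 (179) and 1 (112) with DESeq2, the block and all RNA-seq replicates.

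Leaving out 1 library gave, with each range taken separately over these fits, 4 to 7 (559 to 737) and 3 to 5 (527 to 921) for torin 1 in control and Ctu1 iKO footprints, 0 to 6 (412 to 1233) and 0 to 8 (123 to 1123) in mRNA, and 0 to 1 (95 to 120) and 1 to 1 (155 to 200) for translational efficiency. Ctu1 loss gave 0 to 2 (144 to 285) with DMSO and 1 to 4 (301 to 572) with torin 1 in footprints, 0 to 2 (0 to 511) and 0 to 0 (1 to 406) in mRNA, and 0 to 0 (0 to 3 and 18 to 51) for translational efficiency. The difference between torin 1 effects gave 0 to 0 (48 to 64). The other 54 counts of the 30 genes, from alternatives that leave out no library singly, stayed within 1.5 times.

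Over all genes alone, calls also moved by more than 1.5 times for torin 1 in control mRNA with DESeq2 (1259 to 1963), for Ctu1 loss with torin 1 in mRNA (126) to 0 with all RNA-seq replicates and 12 with replicates 1 and 2, and for translational efficiency with torin 1 in control cells and the block (127 to 283), with Ctu1 loss and DMSO (2) to 5, 5 and 0 with DESeq2, all RNA-seq replicates and footprint replicates 1 to 3, and with Ctu1 loss and torin 1 (60) to 11 with footprint replicates 1 to 3. The 63 differences between torin 1 effects became 109 with DESeq2, 139 with the block and 2 with replicates 1 to 3. Without an alternative, the calls over all genes were 714 and 788 for torin 1 in control and Ctu1 iKO footprints, 794 in Ctu1 iKO mRNA, 277 and 479 for Ctu1 loss with DMSO and torin 1 in footprints, 518 with DMSO in mRNA, and 197 for translational efficiency with torin 1 in Ctu1 iKO cells.

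Hnrnpa1 mRNA with Ctu1 loss and torin 1 (log2FC -0.026) changed sign with all RNA-seq replicates (0.074), without control torin 1 replicate 3 (0.057) and without Ctu1 iKO torin 1 replicates 1 (0.0045) or 2 (0.043), where leaving out 1 library gave -0.13 to 0.057. All RNA-seq replicates include the libraries that stood against their labels. Depth limits Srsf4 and Ctu1 most, the member and the target with the fewest footprints.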

Other observations

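Hnrnpa3 stood apart from the other 29 genes in control cells with DMSO. Its log2 ratio of footprints to mRNA was -3.36 ± 0.10 (SD, n = 3), with 2246 ± 102 CPM in mRNA and 214 ± 27.9 CPM in footprints. The next lowest ratio was that of Hnrnpul1 at -0.97, and the highest that of Hnrnpf at 1.86 ± 0.03. How RNA-seq reads that match several places were counted is not given in the sources used here, and its part was not tested.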
